A study of Mus musculus with 6 samples.

Results

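The genes described here encode the subunits of the proteasome, its activators and its dedicated assembly factors. They were chosen by symbol, as every gene of the count table named Psm followed by a letter from a to g and a number. This gave 49 of 55341 genes. This set and the lists of marker and pathway genes used below were chosen with earlier results of these data known. The values come from RNA sequencing of aortic vessels, 1 library per mouse, from 3 mice that lacked miRNA-26b (miRNA-26b-/-) and 3 mice that carried it (miRNA-26b+/+). All mice were 8 weeks of age and fed chow. The labels give the strain C57BL/6NCrl for every mouse and call the controls naive. The knockout was made in 129/Sv embryonic stem cells, with the miRNA-26b hairpin in an intron of Ctdsp1 placed between loxP sites and deleted by tamoxifen-induced CreERT2 that was later bred out, so the knockout line may still carry 129/Sv sequence next to the deleted site. The methods do not say whether the control line received tamoxifen. Within each group the libraries are numbered as mice 1 to 3, and the numbers pair no mice.

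The proteasome breaks down proteins that carry ubiquitin chains. Its 20S core is a barrel of alpha and beta subunit rings, and the beta subunits encoded by Psmb5, Psmb6 and Psmb7 cut the substrate. A 19S particle, built of an ATPase ring and non-ATPase subunits, caps the barrel, binds ubiquitin, removes the chain and unfolds the protein. In immune cells and under interferon, Psmb8, Psmb9 and Psmb10 replace the standard catalytic subunits to form the immunoproteasome, which favours peptides for MHC class I, and the PA28 activator opens the barrel without ubiquitin. When proteasomes are inhibited, the transcription factor NRF1, encoded by Nfe2l1, raises most subunit genes together. Smooth muscle cells, fibroblasts, endothelial cells and resident leukocytes of the vessel wall all use proteasomes.

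The miRNA that the mice lacked and its relative miRNA-26a are shown because both read the same target sites. RefSeq places mmu-miR-26b-5p at chr1:74394324-74394344 of GRCm38.p6, forward strand. The capitals mark the seed, bases 2 to 8 of the mature miRNA, which pairs with target transcripts.
mmu-miR-26b-5p: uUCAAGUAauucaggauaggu
mmu-miR-26a-5p: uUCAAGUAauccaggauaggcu
Both carry the seed UCAAGUA, and they differ at 2 of the 21 positions compared. The hairpin gene Mir26b was at 0 counts in all knockout mice and in control mice 1 and 3, and had 20 counts in control mouse 2. Libraries of this kind hardly capture so short a transcript, so these counts do not check the genotype.

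Of the 49 genes, 3 (6.12%) had a 7- or 8-base site of the miRNA in their longest annotated 3′ UTR, against 21.4% of the 13464 tested genes with an annotated 3′ UTR. No proteasome gene held the 8-base site, which 4.92% of the tested genes held. The 3′ UTRs of the proteasome genes were short, with a median length of 270 bases against 1205 bases over the tested genes, and these shares were not corrected for length. The 3 matches are shown 5′ to 3′ on the transcript strand, with the matched 7 bases in capitals and their position given in GRCm38. They pair with bases 2 to 7 of the miRNA and end in the A that faces its first base.
Psma2, chr13:14626529-14626535, forward strand: gtgatgtatcACTTGAAcccagagctt
Psma3, chr12:70995799-70995805, forward strand: ccagtacagcACTTGAAacaaaaactt
Psmd5, chr2:34849956-34849962, reverse strand: cactgacttgACTTGAAgcctcccacc
Psma2 and Psma3 encode alpha ring subunits and Psmd5 encodes a chaperone of 19S assembly. A match is a description of the sequence and no measure of binding.

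The libraries held 25706728 to 33345037 counts assigned to genes, and proteasome genes took 0.258% to 0.294% of them. Of the 49 genes, 47 passed the filter on low counts. The labels name endothelial cells, but the summed smooth muscle markers stood at 30608 to 41136 CPM (counts per 1000000 counts, scaled by TMM, which corrects for library size and composition), and the summed endothelial markers at 417 to 1596 CPM. The endothelial sum was 417, 434 and 1596 CPM in the miRNA-26b-/- mice and 1122, 1525 and 1371 CPM in the miRNA-26b+/+ mice, so miRNA-26b-/- mouse 3 stood apart from the rest of its group. At an unadjusted p-value under 0.05, where 3.40% of all genes were higher and 3.07% lower in miRNA-26b-/- mice, 5 of 5 Schwann cell markers, 3 of 6 striated muscle markers and 2 of 4 sympathetic neuron markers were higher, and 1 of 6 endothelial markers, Tek, was lower. miRNA-26b-/- mouse 2 and miRNA-26b+/+ mouse 2 held the most RNA of striated muscle markers, 257 and 187 CPM, of which Myh6 made up 146 and 135 CPM. Of the 3 higher markers, Tnnt3 had 4.49, 6.74 and 1.91 CPM in miRNA-26b-/- mice and 0, 0 and 0.066 CPM in miRNA-26b+/+ mice. Mylpf had 3.56, 3.37 and 6.17 CPM against 0, 0 and 0 CPM. Acta1 had 9.57, 25.3 and 0.319 CPM against 3.26, 0.656 and 1.75 CPM. The summed sympathetic neuron markers stood at 7.62, 219 and 7.98 CPM in miRNA-26b-/- mice and 9.17, 47.8 and 21.97 CPM in miRNA-26b+/+ mice. The higher sympathetic neuron markers, Th and Tubb3, therefore rest on miRNA-26b-/- mouse 2. The sums of the other miRNA-26b-/- mice lay below those of every control. In whole tissue, fewer cells of a type and less RNA per cell cannot be told apart. What part these differences have in the values below was not tested. Where leaving out 1 mouse moved a proteasome gene's log2 fold change printed below by over 1.5 times, the value without it is given beside it or as a range in the closing section.

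The aorta expressed a full set of standard proteasome transcripts. Per kilobase of the principal transcript, which allows genes to be compared with each other, Psmb6 had the highest level, 115 CPM per kilobase, followed by the alpha subunit gene Psma7 with 93.2 and the ATPase gene Psmc3 with 80.5. The medians were 50.2 CPM per kilobase for the 7 alpha ring genes tested, 58.5 for the 7 constitutive beta ring genes, 47.7 for the 6 ATPase genes and 39.5 for the 11 non-ATPase genes. Subunits of one ring differed widely among themselves, as the alpha ring genes ran from 15.4 for Psma3 to 93.2 and the non-ATPase genes from 22.6 for Psmd11 to 67.3 for Psmd8. The medians of the groups outside the standard particle were lower, although Psme1 and Psme2 stood at 42.1 and 42.0. They were 17.9 CPM per kilobase for the 5 PA28 and PA200 activator genes, 11.7 for the 4 core assembly chaperones, 8.73 for the immunoproteasome genes and 8.42 for the base assembly chaperones. Psme2b, a single-exon copy of Psme2, had the lowest level, 3.54, and Psmb9 the next lowest, 3.87. The ranking depends on the length used: over all annotated exons as the authors counted them, the alpha subunit gene Psma6 was highest with 67.8 CPM per kilobase, and Psmb6 stood at place 5 with 49.1.

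**Figure D1:**
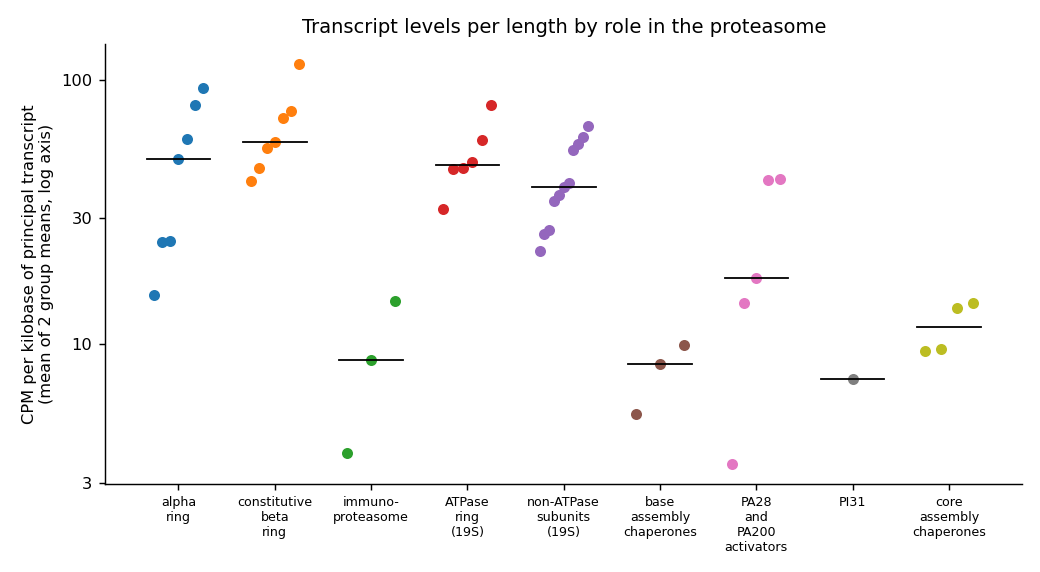
Level of each tested proteasome gene in CPM per kilobase of its principal transcript (log axis, mean of the miRNA-26b-/- and miRNA-26b+/+ group means), grouped by role, with a horizontal line at each group's median. Ring and 19S genes sit between 15.4 and 115, and immunoproteasome and chaperone genes between 3.87 and 14.7.

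The subunits particular to testis and thymus were nearly absent. Psma8, the alpha subunit of the testis, had 0, 19 and 0 counts in the miRNA-26b-/- mice and 39, 0 and 0 counts in the miRNA-26b+/+ mice. Psmb11, the catalytic subunit of the thymus, had 2 counts in miRNA-26b+/+ mouse 3 and 0 counts in the other libraries. Both were left out of the tests. A count of 0 in a library allows up to 3 counts, 0.0894 to 0.117 CPM, which covers counting error only.

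The comparison of miRNA-26b-/- with miRNA-26b+/+ mice asks whether loss of the miRNA changes these transcripts. None of the 47 genes tested had an unadjusted p-value under 0.05 with edgeR's quasi-likelihood test, where 6.46% of all 16017 genes tested had one. DESeq2 and limma voom also gave 0 such genes, and scaling by library size alone gave 1, Psma7. Leaving out a library gave at most 2, Psma7 and Psmc4 without miRNA-26b-/- mouse 2 and Psma7 and Psme2 without miRNA-26b+/+ mouse 3, and Psmd14 passed without miRNA-26b-/- mouse 1. The smallest adjusted p-value among them, with edgeR and Benjamini-Hochberg adjustment over all genes, was 0.769, and over all genes only 1 (0.00624%) had an adjusted p-value under 0.05. The estimates were small. The median log2 fold change of the 47 genes was 0.0024, against 0.013 over all genes tested, with 22 genes lower and 25 higher in the knockout and a range from -0.44 to 0.48. In 36 of the 47 genes (76.6%) the estimate stayed within 1.2-fold, against 51.8% of all genes tested. None passed 1.5-fold, against 22.5% of all genes.

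The precision of these estimates was higher than for most genes. The comparisons with all genes above and below were not matched for expression level. The median standard error of the log2 fold change was 0.204 for the proteasome genes and 0.34 over all genes. The 95% confidence interval lay within a 2-fold change in either direction for 42 of 47 genes (89.4%), against 49.4% of all genes, and within 1.5-fold for 22 of them. Intervals this wide leave room for changes of modest size, so the data bound the change of most subunits and do not show that the groups were alike. In simulated counts with these library sizes, 200 genes drawn from all genes that passed the filter were changed 2-fold. Of the 15002 genes then tested, 67.7% of the changed and 6.02% of the unchanged had an unadjusted p-value under 0.05. These shares are over genes of all kinds and were not worked out for proteasome genes.

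**Figure D2:**
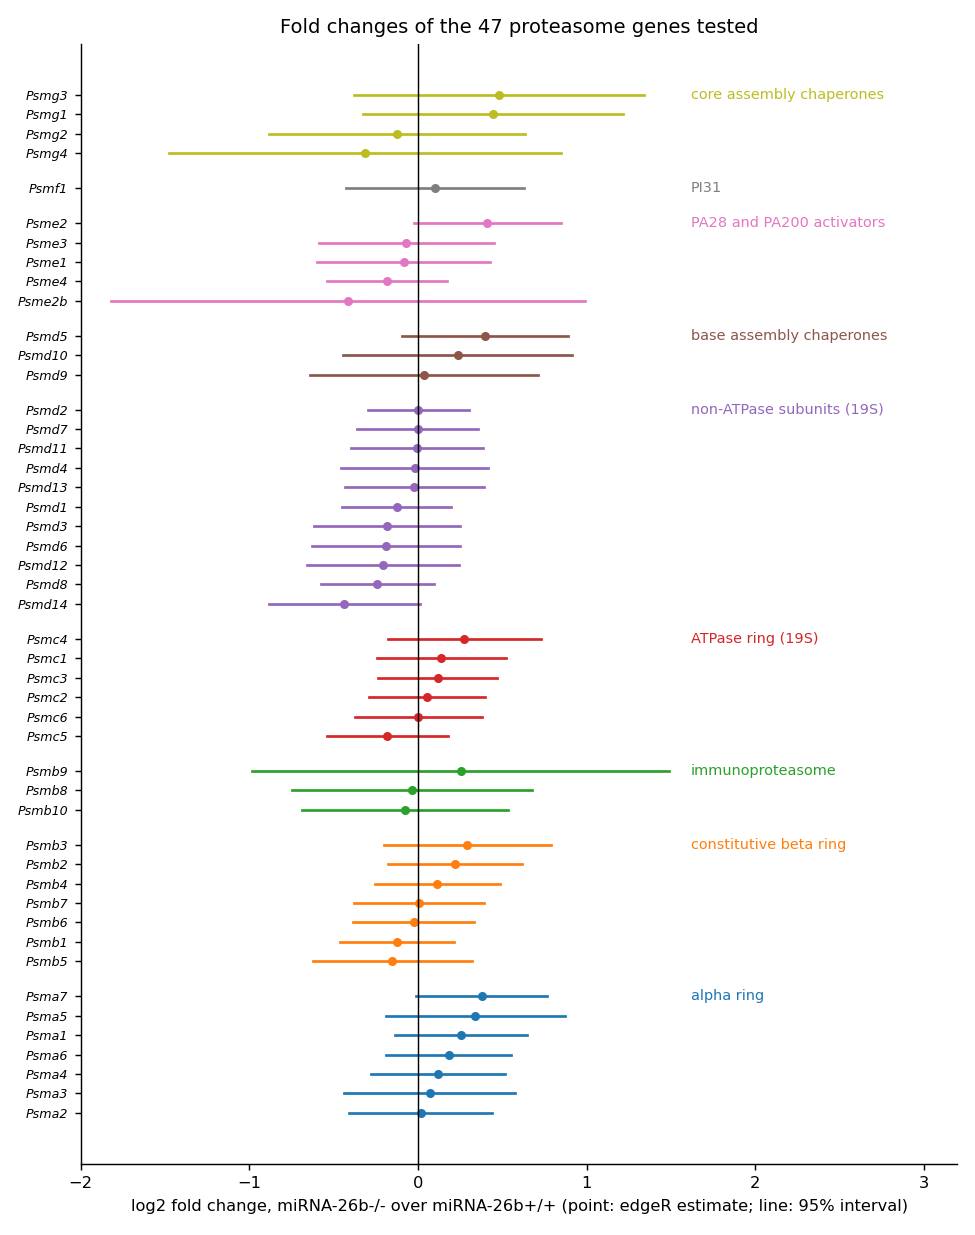
Log2 fold change of the 47 tested proteasome genes, miRNA-26b-/- over miRNA-26b+/+ (3 mice each), as edgeR's estimate (point) with its 95% confidence interval (line), grouped and coloured by role. Every interval includes 0, the 7 alpha ring genes lie to the right of 0 (6 with limma voom) and 10 of 11 non-ATPase genes to the left (8 when scaled by library size alone).

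Replicate mice resembled each other more in these genes than in most. The SD of log2 CPM within a group had a median of 0.193 over the proteasome genes, against 0.398 over all genes tested and 0.351 over the 11812 genes in the same range of mean CPM. That range, 2.96 to 161 CPM, is wide, so the last value is not matched for expression level either. Psmd2, a large scaffold subunit of the 19S particle, was the most abundant by CPM and varied least. Its level was 155, 163 and 165 CPM in the miRNA-26b-/- mice and 160, 161 and 163 CPM in the miRNA-26b+/+ mice. The immunoproteasome gene Psmb9 varied most, with an SD of 0.754. The lowest value fell in miRNA-26b+/+ mouse 2 for 15 of the 47 genes and in miRNA-26b-/- mouse 3 for 13. The highest value fell in miRNA-26b-/- mouse 1 for 12 genes and in miRNA-26b-/- mouse 3 for 11.

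**Figure D3:**
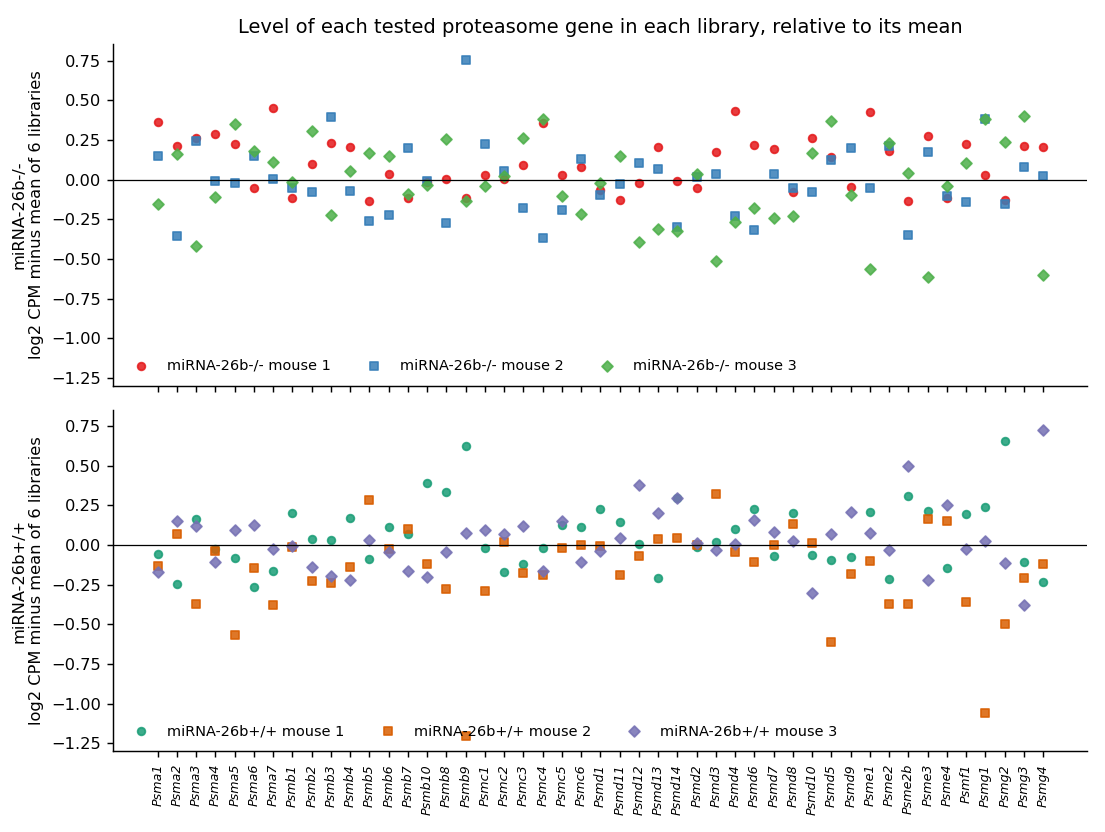
Log2 CPM (with 0.5 CPM added) of each tested proteasome gene in each mouse minus the gene's mean over the 6 libraries, miRNA-26b-/- mice above and miRNA-26b+/+ mice below, genes ordered by role. Most points lie close to 0, and Psmb9 and Psmg1 in miRNA-26b+/+ mouse 2 lie farthest below it.

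All 7 alpha ring genes tested had a higher mean in miRNA-26b-/- mice, with a median log2 fold change of 0.18 and none at an unadjusted p-value under 0.05, and with limma voom 6 of the 7 did. The alpha subunits form the outer rings of the barrel and its gate. Psma7 (ENSMUSG00000027566, chr2:180036374-180042433, reverse strand, 7 exons) had 115, 84.1 and 90.7 CPM in the miRNA-26b-/- mice and 74.7, 64.4 and 82.4 CPM in the miRNA-26b+/+ mice. Its groups did not overlap, though the lowest value of miRNA-26b-/- mice lay only just above the highest of the controls. The log2 fold change was 0.38 with a standard error of 0.18 and an adjusted p-value of 0.769 with edgeR (unadjusted 0.0551), and the log2 fold change came to 0.24 without miRNA-26b-/- mouse 1. Psma5 had the next largest estimate, 0.34, which came to 0.18 without miRNA-26b+/+ mouse 2, the mouse with its lowest level, 19.8 CPM.

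The other alpha subunits lay closer together. Psma6, the most abundant per kilobase over all annotated exons, had 80.2, 92.2 and 94.1 CPM against 69.2, 75.3 and 90.8 CPM. Its groups overlapped, and the log2 fold change was 0.098 without miRNA-26b+/+ mouse 1 and 0.29 without miRNA-26b+/+ mouse 3. The genes with such a 7-base site, Psma2 and Psma3, had log2 fold changes of 0.015 and 0.07. Psma2 had 82.1, 55.5 and 79.4 CPM against 59.8, 74.7 and 79.1 CPM, and Psma3 had 51.9, 51.2 and 32.1 CPM against 48.4, 33.2 and 46.8 CPM. In both genes the spread within a group exceeded the difference between the group means. Summed over the ring, the level was 526, 450 and 452 CPM in miRNA-26b-/- mice and 407, 389 and 448 CPM in miRNA-26b+/+ mice, a ratio of 1.15 (exact permutation test, two-sided, p = 0.1, the smallest that 3 against 3 mice can give). Without miRNA-26b-/- mouse 1, 4 of the 7 genes instead of 7 had the higher mean in miRNA-26b-/- mice, and the log2 difference of the sums fell to 0.12 from 0.20.

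The constitutive beta ring showed no common direction, with 4 genes higher, 3 lower and a median log2 fold change of 0.005. Of its catalytic subunits, Psmb5 (ENSMUSG00000022193, chr14:54614119-54618022, reverse strand, 3 exons) carries the chymotrypsin-like activity and had 33.7, 30.9 and 41.6 CPM in miRNA-26b-/- mice and 34.8, 45.1 and 38.0 CPM in miRNA-26b+/+ mice. Psmb6 (ENSMUSG00000018286, chr11:70525367-70527858, forward strand, 6 exons), with the caspase-like activity, had 93.8, 78.5 and 101 CPM against 99.1, 90.04 and 88.7 CPM. Psmb7 (ENSMUSG00000026750, chr2:38588036-38644087, reverse strand, 8 exons), with the trypsin-like activity, had 62.3, 77.6 and 63.4 CPM against 70.8, 72.5 and 60.2 CPM. The groups overlapped in all 3, and the log2 fold changes were -0.15, -0.026 and 0.005. Their 95% confidence intervals ran from -0.62 to 0.32, from -0.38 to 0.33 and from -0.38 to 0.39. The estimate for Psmb5 was -0.28 without miRNA-26b-/- mouse 3 and -0.037 without miRNA-26b+/+ mouse 2.

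Of the structural beta subunits, Psmb3 had the largest estimate, 0.29, with 41.3, 46.3 and 30.1 CPM against 36.0, 29.7 and 30.7 CPM. It came to 0.14 without miRNA-26b-/- mouse 2 and 0.45 without miRNA-26b-/- mouse 3. Psmb2, with an estimate of 0.22 that came to 0.11 without miRNA-26b-/- mouse 3, had 65.5, 57.9 and 75.9 CPM against 62.9, 52.1 and 55.5 CPM. Psmb1 was lower in every miRNA-26b-/- mouse, with 89.4, 93.6 and 96.2 CPM against 112, 96.5 and 96.7 CPM. The gap between its groups was under 1 CPM, and the log2 fold change was -0.13, or -0.053 without miRNA-26b+/+ mouse 1. Over the ring, the summed level differed by a ratio of 1.02 (exact permutation test, two-sided, p = 0.7).

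The immunoproteasome genes did not differ between the groups beyond their spread. Psmb8 (ENSMUSG00000024338, chr17:34197721-34201454, forward strand, 6 exons) had 14.0, 11.5 and 16.8 CPM in miRNA-26b-/- mice and 17.8, 11.5 and 13.6 CPM in miRNA-26b+/+ mice. Psmb9 (ENSMUSG00000096727, chr17:34181987-34187764, reverse strand, 6 exons), its neighbour in the MHC region, had 4.34, 8.38 and 4.29 CPM against 7.60, 1.79 and 5.03 CPM. Psmb10 (ENSMUSG00000031897, chr8:105935735-105938444, reverse strand, 8 exons) had 18.8, 18.9 and 18.5 CPM against 25.1, 17.5 and 16.5 CPM. The 3 genes were highest in miRNA-26b+/+ mouse 1, except Psmb9, which was highest in miRNA-26b-/- mouse 2. Their log2 fold changes were -0.035, 0.25 and -0.075, and the 95% confidence intervals ran from -0.74 to 0.67, from -0.98 to 1.49 and from -0.68 to 0.54.

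**Figure D4:**
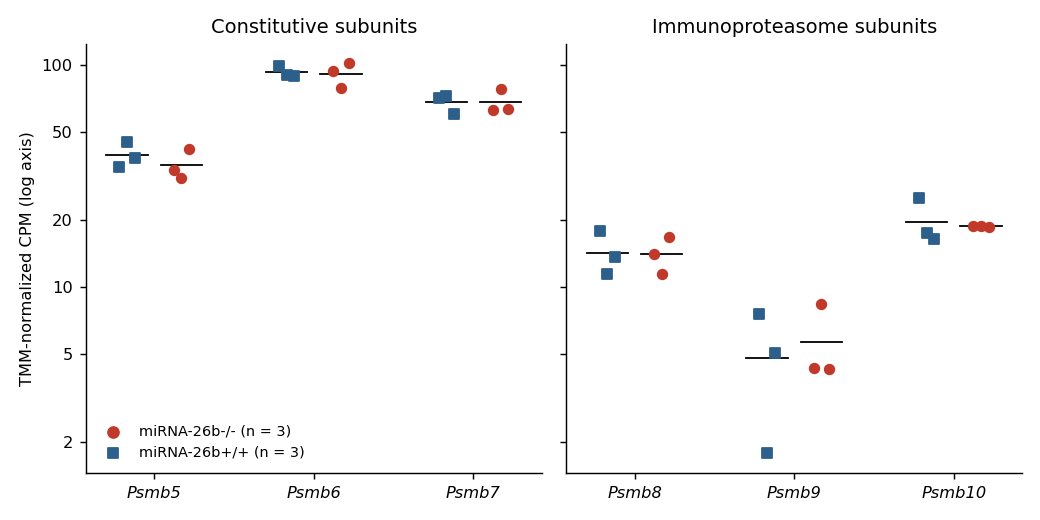
TMM-normalized CPM (log axis) of the constitutive catalytic subunit genes and their immunoproteasome counterparts in each of 3 miRNA-26b-/- (circles) and 3 miRNA-26b+/+ (squares) mice, with a horizontal line at each group mean. The groups overlap in all 6 genes, and Psmb9 spreads most, from 1.79 to 8.38 CPM.

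Summed over the 3 genes, the immunoproteasome stood at 37.2, 38.8 and 39.7 CPM in miRNA-26b-/- mice and 50.5, 30.7 and 35.1 CPM in miRNA-26b+/+ mice. The means were 38.5 ± 1.27 CPM and 38.8 ± 10.4 CPM (SD, n = 3 each, exact permutation test, two-sided, p = 1). The controls spread more widely than the knockout mice. Leukocytes are the cells richest in these subunits. Of 18 leukocyte markers, 13 were tested and none passed an unadjusted p-value of 0.05. Of those tested, 6 were higher and 7 lower in miRNA-26b-/- mice. Their sum was 390, 391 and 979 CPM in miRNA-26b-/- mice and 596, 575 and 619 CPM in miRNA-26b+/+ mice. The most abundant marker was the macrophage gene Lyz2. The T cell gene Cd3e was at 0 counts in every library, but Cd3g reached 2.02 CPM and Cd8a 1.85 CPM in miRNA-26b+/+ mouse 3. Ptprc had 4.38, 0 and 9.61 CPM in miRNA-26b-/- mice and 12.7, 12.1 and 7.08 CPM in miRNA-26b+/+ mice, a log2 fold change of -1.26. The mouse with the highest leukocyte sum, miRNA-26b-/- mouse 3, had 39.7 CPM of immunoproteasome transcripts, and the mouse with the highest immunoproteasome sum had 596 CPM of leukocyte markers. The leukocyte sum weights abundant markers such as Lyz2. What part leukocytes have in the immunoproteasome values was not tested.

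Each immunoproteasome gene was also compared with the subunit it replaces, as the ratio of their levels per kilobase over all annotated exons, with 3 ratios compared. Psmb8 stood at 11.1%, 9.92% and 10.8% of Psmb5 in miRNA-26b-/- mice and 13.6%, 6.77% and 9.53% in miRNA-26b+/+ mice (exact permutation test, two-sided, p = 0.7, adjusted 1). Psmb9 stood at 2.36%, 5.46% and 2.17% of Psmb6 against 3.93%, 1.01% and 2.90% (exact permutation p = 0.6, adjusted 1). Psmb10 stood at 60.5%, 48.8% and 58.7% of Psmb7 against 71.1%, 48.3% and 54.9% (exact permutation p = 1, adjusted 1). With the length of the principal transcript instead, the average for Psmb10 came to 25.2% of Psmb7 and that for Psmb8 to 21.3% of Psmb5. These ratios are of transcripts in whole tissue and say nothing of the share of assembled particles.

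No gene of the 19S particle passed the test. Of the 6 ATPase genes, whose ring unfolds substrates, 5 had a higher mean in miRNA-26b-/- mice (median log2 fold change 0.085). Psmc4 had the largest estimate, 0.27, with 84.4, 50.9 and 85.8 CPM against 64.8, 57.8 and 58.7 CPM, so miRNA-26b-/- mouse 2 lay below all controls and the other mice of its group above. The estimate was 0.49 without that mouse, 0.16 without miRNA-26b-/- mouse 1 and 0.14 without miRNA-26b-/- mouse 3. Psmc5, the ATPase gene with the lowest estimate, -0.18, had 79.5, 68.2 and 72.6 CPM against 85.3, 76.9 and 86.8 CPM. Psmc3, the most abundant ATPase gene, had 140, 115 and 157 CPM against 121, 116 and 142 CPM, and Psmc2 had 87.4, 90.5 and 88.7 CPM against 77.3, 88.6 and 91.4 CPM. In both, the groups overlapped.

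Of the 11 non-ATPase genes, 10 had a lower mean in miRNA-26b-/- mice (median log2 fold change -0.13). This count rests on values near 0, as Psmd7 and Psmd11 had log2 fold changes of -0.00017 and -0.0047 and turned positive when scaled by library size alone or by the size factors of DESeq2, which left 8 lower and 3 higher. Without miRNA-26b+/+ mouse 3 it was 7 lower and 4 higher with a median of -0.063, and without miRNA-26b-/- mouse 1 it was 9 lower and 2 higher with a median of -0.24. Psmd14 (ENSMUSG00000026914, chr2:61711694-61800376, forward strand, 12 exons), the enzyme that cuts the ubiquitin chain from the substrate, had the lowest estimate of all proteasome genes, -0.44 with a standard error of 0.21. Its level was 39.3, 32.1 and 31.5 CPM in miRNA-26b-/- mice and 48.7, 41.0 and 48.8 CPM in miRNA-26b+/+ mice, with no overlap (edgeR adjusted p-value 0.769, unadjusted 0.0548). Psmd8, a subunit of the lid, was also lower in every miRNA-26b-/- mouse, with 97.7, 99.5 and 87.9 CPM against 119, 113 and 105 CPM, and its log2 fold change was -0.24 (edgeR adjusted p-value 0.851).

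Psmd1 (ENSMUSG00000026229, chr1:86064387-86139151, forward strand, 25 exons), a scaffold subunit of the 19S base, was the only proteasome gene on the chromosome of Mir26b, 11.7 Mb from it. Its level was 121, 118 and 125 CPM in miRNA-26b-/- mice and 148, 126 and 123 CPM in miRNA-26b+/+ mice, with a log2 fold change of -0.13. The groups overlapped, and only miRNA-26b+/+ mouse 1 lay clearly above the rest, without which the estimate was -0.037. None of the other proteasome genes lay on this chromosome.

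Summed over 17 genes, the 19S particle stood at 1505, 1377 and 1357 CPM in miRNA-26b-/- mice and 1468, 1403 and 1489 CPM in miRNA-26b+/+ mice, a ratio of 0.972 (exact permutation test, two-sided, p = 0.5). The constitutive 20S core, summed over 15 genes, stood at 1017, 920 and 954 CPM against 924, 857 and 895 CPM, a ratio of 1.08 (exact permutation p = 0.2). Neither sum separated the groups. Their ratio did separate them. The 20S sum was 67.6%, 66.8% and 70.3% of the 19S sum in miRNA-26b-/- mice and 62.9%, 61.1% and 60.1% in miRNA-26b+/+ mice. The means were 68.2% ± 1.84 and 61.4% ± 1.43 (SD, n = 3 each), a log2 difference of 0.15 with the smallest p-value that 3 against 3 mice allow (exact permutation test, two-sided, p = 0.1).

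This ratio was formed after the values of single genes were seen, and it does not depend on the scaling between libraries. It was among several sums and ratios compared, and its p-value was not adjusted for their number. The values that follow come from the same mice and genes, so they describe the ratio and do not test it. The log2 difference of the ratio stayed between 0.13 and 0.17 when any mouse was left out. It was 0.13 without Psma7, 0.14 without Psmd14 and 0.15 from levels per kilobase. Gene by gene, 11 of 14 core genes tested had a higher mean in miRNA-26b-/- mice, with a median log2 fold change of 0.12, and 11 of 17 genes of the 19S particle a lower one, with a median of -0.018. Without miRNA-26b-/- mouse 1 the core count was 8 of 14. When scaled by library size alone or by the size factors of DESeq2, 9 of the 17 genes of the 19S particle were lower, as they were without miRNA-26b-/- mouse 3 or miRNA-26b+/+ mouse 3.

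**Figure D5:**
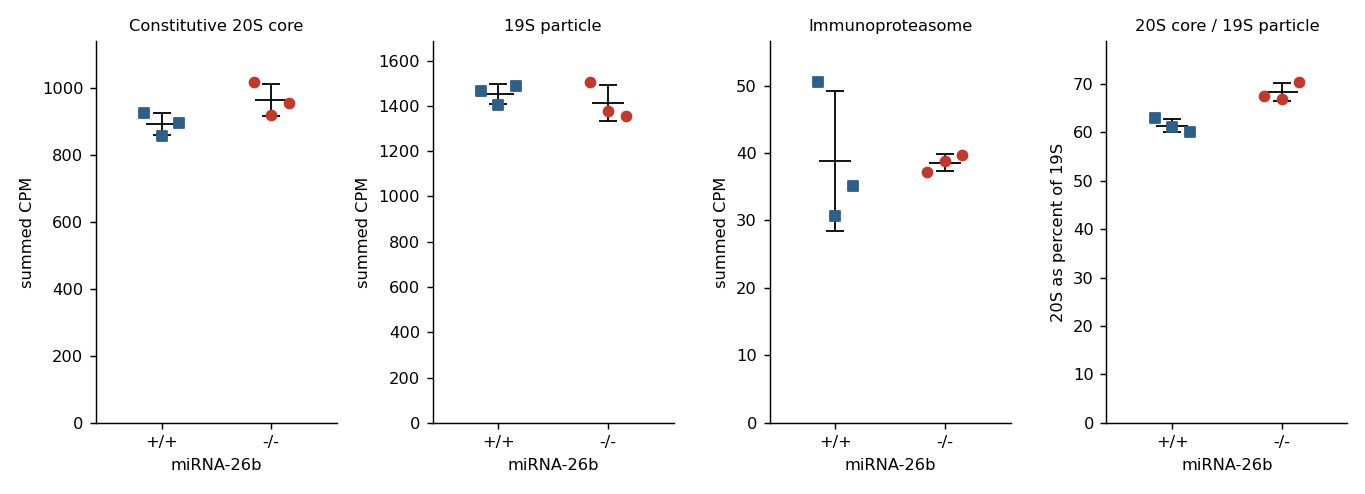
Summed CPM of the constitutive 20S core genes, the 19S particle genes and the immunoproteasome genes, and the 20S sum as percent of the 19S sum, in each of 3 miRNA-26b+/+ (squares) and 3 miRNA-26b-/- (circles) mice, with mean and SD in black. The groups overlap in the 3 sums, and the percentages do not overlap, at 60.1% to 62.9% and 66.8% to 70.3%.

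Chaperones help build both parts of the particle. The 3 chaperones of 19S base assembly, Psmd5, Psmd9 and Psmd10, each had a higher mean in miRNA-26b-/- mice. Psmd5 (ENSMUSG00000026869, chr2:34849734-34874968, reverse strand, 10 exons) had 40.1, 39.6 and 47.02 CPM in miRNA-26b-/- mice and 33.9, 23.6 and 38.0 CPM in miRNA-26b+/+ mice. Of the 3 genes with a site of the miRNA, only Psmd5 had groups that did not overlap. Among all genes tested, 5.65% lay higher in miRNA-26b-/- mice without overlap, and 3 genes are too few to compare with that share. The log2 fold change of Psmd5 was 0.40 with a standard error of 0.23 (edgeR adjusted p-value 0.811). Without miRNA-26b+/+ mouse 2, the lowest value, the log2 fold change was 0.24. Psmd10 had 16.96, 13.3 and 15.8 CPM against 13.4, 14.2 and 11.3 CPM, and Psmd9 had 13.6, 16.3 and 13.1 CPM against 13.4, 12.3 and 16.4 CPM. Both overlapped between the groups, and the estimate for Psmd10 was 0.14 without miRNA-26b+/+ mouse 3. The sum of the 3 chaperones was 71.9 ± 3.60 CPM against 58.8 ± 7.91 CPM (SD, n = 3 each), a ratio of 1.22 without overlap (exact permutation test, two-sided, p = 0.1). The log2 difference of the sums was 0.29, and 0.19 without miRNA-26b+/+ mouse 2.

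Of the core assembly chaperones, which pair up to hold the growing alpha ring, Psmg1 and Psmg3 had a higher and Psmg2 and Psmg4 a lower mean in miRNA-26b-/- mice. Psmg3 had the largest estimate of all proteasome genes, 0.48, with 9.73, 8.82 and 11.1 CPM against 7.70, 7.14 and 6.29 CPM and no overlap. Its standard error of 0.40 was large for a proteasome gene, and its adjusted p-value with edgeR was 0.891. Psmg1 had 13.9, 17.9 and 17.9 CPM against 16.2, 6.27 and 13.9 CPM, and its estimate of 0.44 came to 0.16 without the low value of miRNA-26b+/+ mouse 2 and to 0.71 without miRNA-26b+/+ mouse 1. Psmg4, with 5.82, 5.07 and 3.12 CPM against 4.18, 4.55 and 8.57 CPM, had an estimate of -0.31 that came to 0.089 without miRNA-26b+/+ mouse 3. Psmg2 had 13.4, 13.2 and 17.4 CPM against 23.5, 10.3 and 13.6 CPM.

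Of the activators, Psme2, a subunit of PA28, had the smallest p-value. Psme2 (ENSMUSG00000079197, chr14:55587441-55591113, reverse strand, 11 exons) had 45.3, 46.3 and 46.95 CPM in miRNA-26b-/- mice and 34.3, 30.7 and 39.0 CPM in miRNA-26b+/+ mice. The groups did not overlap, and the log2 fold change was 0.41 with a standard error of 0.20 (edgeR adjusted p-value 0.769, unadjusted 0.0621). Psme1, its partner in the PA28 ring and its neighbour on chromosome 14, had 61.8, 44.2 and 30.9 CPM against 53.0, 42.8 and 48.4 CPM and a log2 fold change of -0.086. That direction rests on miRNA-26b-/- mouse 3, without which it was 0.12, and it was -0.35 without miRNA-26b-/- mouse 1. The difference between Psme1 and Psme2 was not tested. The copy Psme2b, with 2.58, 2.15 and 2.98 CPM against 3.69, 2.11 and 4.27 CPM, had an estimate of -0.42, the largest in size among the activators, which ran from -0.64 without miRNA-26b+/+ mouse 2 to -0.22 without miRNA-26b+/+ mouse 3.

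Reads were counted only where they aligned to a single place, so near-identical genes lose reads, and 59.3% of the 50-base words of Psme2 and 69.3% of those of Psme2b occur in another gene. The 2 values are therefore uncertain. In all, 15 proteasome genes shared over 10% of their 50-base words with other genes, mostly pseudogenes, among them Psmb5 (57.1%), Psmb3 (55.8%) and Psma5 (55.4%). Exons of 14 proteasome genes overlapped those of another gene, for 5 of them over more than 10% of their bases. These 5 were Psmd9 (25.5%), Psmb8 (14.7%), Psmb5 (12.1%), Psmb7 (11.8%) and Psmd13 (10.1%). Reads in such overlaps were counted for both genes without regard to strand, and 5.79% of the exon bases of Psmb9 lie in Tap1. The ratios of Psmb8 to Psmb5 and of Psmb10 to Psmb7 above include such genes and carry this limit.

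The other activators and the regulator PI31 stayed close. Psme3, the nuclear PA28 subunit, had 56.5, 52.8 and 30.4 CPM against 54.2, 52.4 and 40.0 CPM. Psme4, which encodes the PA200 activator, had 85.6, 86.5 and 90.1 CPM against 83.9, 103 and 111 CPM and a log2 fold change of -0.18, which was -0.29 without miRNA-26b+/+ mouse 1 and -0.10 without miRNA-26b+/+ mouse 3. Psmf1, which encodes PI31, had 32.8, 25.3 and 30.2 CPM against 32.1, 21.8 and 27.5 CPM and a log2 fold change of 0.10. The groups overlapped in all 3.

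The groups were fully separated in 7 of the 47 genes (14.9%), against 11.5% of all genes tested, and each gave the smallest p-value of the exact permutation test, 0.1. They were Psma7, Psmd5, Psme2 and Psmg3, higher in miRNA-26b-/- mice, and Psmb1, Psmd8 and Psmd14, lower, and were singled out after their values were seen. Among all genes tested, 5.65% lay higher and 5.88% lower without overlap. Taken over all 49 genes, the summed level was 2957, 2707 and 2708 CPM in miRNA-26b-/- mice and 2816, 2622 and 2797 CPM in miRNA-26b+/+ mice, a ratio of 1.02 (exact permutation test, two-sided, p = 0.8).

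Promoters of 41 of the 49 genes were found in RefSeq, from 250 bases before to 50 bases after the start (GRCm38.p6), and searched on both strands for motifs of factors known to act on proteasome genes. The antioxidant response element TGACNNNGC, which NRF1 and NRF2 read, was in 6 of 41 (14.6%), against 14% of 27025 genes with a promoter and 16.8% of those tested. The interferon-stimulated response element, GAAA repeated after any 2 bases, was in 5 of 41 (12.2%), against 3.99% and 3.72%. The STAT site TTCNNNGAA was in 3 (7.32%), against 9.55% and 8.29%, the heat shock element GAANNTTC in 3 (7.32%), against 9.04% and 7.06%, and the NF-Y box CCAAT in 14 (34.1%), against 41.1% and 42.1%. Matches of the heat shock element and the STAT site can share bases, since both begin or end in GAA and TTC.

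The matches below are a selection from catalytic and activator genes described above and the beta subunit gene with an interferon element. Other matches in such genes are not shown, among them an antioxidant element in Psme4 and heat shock elements in Psmb5 and Psmb9. Each is written 5′ to 3′ on the strand of its gene, with the match in capitals. The match in Psme1 and that in Psmb3 read on the opposite strand.
Psmb5, antioxidant element, chr14:54618026-54618050, reverse strand: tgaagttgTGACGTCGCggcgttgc
Psmb6, antioxidant element, chr11:70525340-70525364, forward strand: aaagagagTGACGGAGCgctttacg
Psmb8, STAT site, chr17:34198090-34198114, forward strand: ctccgctgTTCCCAGAAgatgcccc
Psme1, interferon element, chr14:55578495-55578520, forward strand: agctgtgcTTTCGCTTTCccttcccg
Psmb3, interferon element, chr11:97703263-97703288, forward strand: cagtgactTTTCACTTTCcgctttcc
The log2 fold changes of the genes shown were -0.15 for Psmb5, -0.026 for Psmb6, -0.035 for Psmb8, -0.086 for Psme1 and 0.29 for Psmb3. No immunoproteasome promoter held that interferon element within this window, which says only that its letters were not there.

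The rest of the pathway was read from lists of its genes. None of 9 other parts of the particle, such as its ubiquitin receptors, deubiquitinases and the core chaperone Pomp, had an unadjusted p-value under 0.05, with 3 higher, 6 lower and a median log2 fold change of -0.091. The most abundant were Ecpas, a proteasome adaptor, with 99.8 ± 13.8 CPM against 95.2 ± 16.8 CPM, and Sem1, a small lid subunit, with 71.2 ± 13.5 CPM against 62.0 ± 9.70 CPM (SD, n = 3 each). Pomp had 51.6 ± 9.99 CPM against 54.7 ± 8.62 CPM. Among 17 genes of ubiquitin and its shuttles none passed (9 higher, 8 lower, median 0.039), and the most abundant was the ubiquitin-activating enzyme Uba1, 233 ± 35.5 CPM against 268 ± 5.01 CPM (SD, n = 3 each).

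Regulators of proteasome genes were represented by 11 genes, of which 1 passed an unadjusted p-value of 0.05, lower in miRNA-26b-/- mice, where 3.07% of all genes did. It was Sel1l, which serves the degradation of misfolded proteins of the endoplasmic reticulum, with 177, 166 and 231 CPM in miRNA-26b-/- mice and 228, 254 and 243 CPM in miRNA-26b+/+ mice, a log2 fold change of -0.34 (edgeR adjusted p-value 0.763, unadjusted 0.0471). Its unadjusted p-value ran from 0.00383 to 0.191 when a library was left out and was under 0.05 only without miRNA-26b-/- mouse 3. With all libraries, edgeR gave 0.051 with the size factors of DESeq2, 0.057 with library size alone, 0.054 with no filter and 0.0567 with the earlier method. It was under 0.05 in the other settings. Nfe2l1, the most abundant regulator, had 538, 488 and 485 CPM against 465, 527 and 551 CPM, a log2 fold change of -0.031 with a 95% confidence interval from -0.31 to 0.24.

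Of 11 partners in antigen processing, which handle the peptides that proteasomes release, 1 passed, lower in miRNA-26b-/- mice, where 3.07% of all genes did. Pdia3, a chaperone of MHC class I loading, had 563, 474 and 604 CPM against 669, 627 and 702 CPM, with no overlap and a log2 fold change of -0.28 (edgeR adjusted p-value 0.769, unadjusted 0.0494). The unadjusted p-value ran from 0.0172 to 0.228 when a library was left out and was under 0.05 only without miRNA-26b-/- mouse 3. With all libraries, edgeR gave 0.0523 with the size factors of DESeq2, 0.0585 with library size alone, 0.0503 with upper-quartile scaling and 0.0515 with filterByExpr. It was under 0.05 in the other settings. Calr, the most abundant partner, had 718 ± 86.6 CPM against 801 ± 110 CPM (SD, n = 3 each). Tap1, the peptide transporter gene beside Psmb9, had 12.4, 17.5 and 15.8 CPM against 13.6, 9.29 and 5.76 CPM, a log2 fold change of 0.68 (edgeR adjusted p-value 0.797).

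Of 17 interferon signalling genes tested, 1 passed, higher in miRNA-26b-/- mice, where 3.40% of all genes did. Gbp2, an interferon-induced GTPase, had 51.1, 32.9 and 55.7 CPM against 38.8, 22.3 and 22.1 CPM, a log2 fold change of 0.73 (edgeR adjusted p-value 0.736, unadjusted 0.0197). It passed without miRNA-26b-/- mouse 2 and without miRNA-26b+/+ mouse 1, and the unadjusted p-value was 0.0625 to 0.0897 when any other mouse was left out. The receptor genes Ifngr2 and Ifngr1 were the most abundant, with 108 ± 17.1 CPM against 88.9 ± 14.5 CPM and 78.6 ± 12.9 CPM against 87.9 ± 9.23 CPM (SD, n = 3 each). Irf1, an activator of immunoproteasome genes, had 23.7, 20.5 and 8.76 CPM against 21.0, 31.1 and 26.4 CPM, a log2 fold change of -0.57 (edgeR adjusted p-value 0.813). Summed over the list, the level was 434, 376 and 401 CPM against 408, 350 and 356 CPM (exact permutation test, two-sided, p = 0.3), and the groups overlapped.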

How the data were processed

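Each library came from total RNA of the aortic vessels of 1 mouse. Reads were mapped by the authors to GRCm38 (mm10) with STAR, and they deposited raw counts per gene name, made with featureCounts 1.6.4 over exons of the GENCODE annotation M21, without strand, counting a read for each gene it overlapped and leaving out multi-mapping reads. The study's text names a later release. The deposited table of normalized values also holds the authors' own fold changes and p-values and was not used.

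The filter asked for 2 counts or more in total and for over 1 CPM in 2 or more libraries. Counts were scaled by TMM, and edgeR 4.0.16 in R 4.3.3 gave quasi-likelihood tests (prior count 0.125), miRNA-26b-/- against miRNA-26b+/+. P-values were adjusted by Benjamini-Hochberg over all genes tested. The replicates are separate mice. CPM use the TMM-scaled library sizes. Single sums and ratios were compared by exact permutation, two-sided. Depth was 25706728 to 33345037 counts per library, and floors for a count of 0 cover counting error only. The procedure was tested on simulated data.

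Members were given by symbol. Members and lists were chosen with earlier results of these data known. Named with values are the 6 catalytic subunits, members with an unadjusted p-value under 0.05, the highest and lowest level per length of each role, untested members, members on the chromosome of Mir26b, the 3 largest and 3 smallest fold changes, and, of the pathway lists, genes with an unadjusted p-value under 0.05 and the 2 most abundant. The values of 1 gene of these lists are not reported here. Other members are given by role for completeness. Sequences came from RefSeq and GENCODE. Alternatives were other scalings, filters and tests (DESeq2 1.42.0, limma voom of limma 3.58.1, the earlier and the robust edgeR fit), leaving out each library, and other lengths and windows. The principal-transcript length and the settings for the ratio of 20S to 19S sums, for genes of the pathway lists and for all tested members were added after seeing the data.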

Additional observations from a re-analysis of the deposited data

How the results depend on the processing

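No paired analysis was possible because the labels carry no replicate numbers shared between the groups. The count of proteasome genes with an unadjusted p-value under 0.05 was 0 with edgeR, DESeq2, limma voom, the earlier edgeR method and the other filters, and 1 (Psma7) with the size factors of DESeq2, with library size alone and with robust shrinkage. Leaving out a library gave 0 to 2 such genes (Psma7, Psmc4, Psmd14 or Psme2), and none had an adjusted p-value under 0.05 under any setting. Over all genes, 57 had one with DESeq2, 3 with limma voom, 3 with robust shrinkage, 0 with the earlier edgeR method (802 at an unadjusted p-value under 0.05), and 0 to 82 when a library was left out, the 82 without miRNA-26b-/- mouse 3. The causes were not tested. The median log2 fold change of the proteasome genes was -0.0022 with limma voom and ran from -0.034 to 0.10 when a library was left out. Of 47 genes tested, 5 changed sign under other scalings, filters or tests, all by values near 0: with limma voom Psma2 came to -0.0035 and Psmc6 to -0.0022, Psmb7 came to -0.0013 with the earlier edgeR method, Psmd11 to 0.0026 (size factors of DESeq2), 0.011 (library size), 0.0037 (no filter) and 0.004 (DESeq2), and Psmd7 to 0.0067, 0.016, 0.0078 and 0.0078 under the same settings, 0.00077 with filterByExpr and 0.0011 with the earlier edgeR method. The immunoproteasome sum came to a log2 difference of 0.0022 with library size alone. When a library was left out, 21 genes changed sign: Psma2 ran from -0.097 to 0.18, Psma3 from -0.072 to 0.26, Psma4 from -0.0015 to 0.20, Psmb6 from -0.11 to 0.076, Psmb7 from -0.11 to 0.0596, Psmb8 from -0.19 to 0.16, Psmb9 from -0.18 to 0.75, Psmb10 from -0.20 to 0.14, Psmc2 from -0.018 to 0.093, Psmc6 from -0.069 to 0.10, Psmd2 from -0.015 to 0.025, Psmd4 from -0.28 to 0.0995, Psmd7 from -0.10 to 0.11, Psmd9 from -0.074 to 0.16, Psmd11 from -0.086 to 0.071, Psmd13 from -0.13 to 0.11, Psme1 from -0.35 to 0.12, Psme3 from -0.22 to 0.16, Psmf1 from -0.022 to 0.24, Psmg2 from -0.34 to 0.29 and Psmg4 from -0.51 to 0.089. The log2 differences of sums ran from -0.15 to 0.23 for the immunoproteasome, from -0.035 to 0.38 for the core assembly chaperones, from -0.014 to 0.092 for the constitutive beta ring and from -0.0198 to 0.045 for all genes, and those of ratios from -0.11 to 0.40 for Psmb8 to Psmb5, from -0.15 to 0.82 for Psmb9 to Psmb6 and from -0.16 to 0.11 for Psmb10 to Psmb7. By the principal transcript, Psmb8 stood at 21.34% of Psmb5 and Psmb10 at 25.16% of Psmb7. In the 200 bases before the start, 3 promoters (7.32%) held the antioxidant element, against 9.77% of all and 11.9% of tested genes, 3 (7.32%) the interferon element, against 2.65% and 2.39%, and 1 (2.44%) the STAT site, against 6.38% and 5.64%. Depth limits Psmb9, Psme2b and Psmg4 most, which had under 10 CPM in every library. It also limits Psmg3, with means of 9.90 CPM in miRNA-26b-/- mice and 7.04 CPM in miRNA-26b+/+ mice.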
